A study of Mus musculus with 2 samples.

Results

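The genes of the proteasome, the protease that degrades ubiquitin-tagged proteins, were followed through an in vitro T-cell differentiation of mouse fetal liver progenitors. Members were the genes whose symbol starts with Psm, followed by a letter from a to g and a number, which took in 48 of the 28692 genes listed. In each of 2 droplet libraries the immune catalytic gene Psmb8 was the member that rose most between cells with progenitor transcripts and cells with commitment transcripts, 2.44-fold in FL001 and 2.30-fold in FL002. The summed level of all members differed far less, with a ratio of 1.20 in FL001 and 1.06 in FL002. Ratios are of a later gate to an earlier one throughout.

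The proteasome has a barrel-shaped core of stacked rings, in which alpha subunits form the gate and beta subunits hold the proteolytic sites, and a regulatory cap that recognises, unfolds and feeds in its substrates. Psmb5, Psmb6 and Psmb7 encode the constitutive catalytic subunits. Psmb8, Psmb9 and Psmb10 encode the immune subunits that replace them, in that order, when an immunoproteasome is assembled, and interferon is their best known inducer. Hematopoietic cells carry immunoproteasomes also without infection, and the peptides they cut load major histocompatibility complex (MHC) class I. Psmb8 and Psmb9 lie in the MHC beside the peptide transporter genes Tap1 and Tap2.

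Hematopoietic stem and progenitor cells (HSPCs; Sca-1+ cKit+, wild type) were taken from TER-119-depleted livers of E13.5 CD1 mouse embryos and seeded at 1000 cells per well on the Notch ligand DL4 (10 µg/mL) and the adhesion molecule VCAM-1 (2.32 µg/mL). Both libraries carry this one condition, so there was no control group, and neither the number of embryos nor whether the libraries were separate cultures is stated. Cells from the sort and from later days of culture were pooled according to the study's legend, with no day assigned to a library. The wells held coated protein in place of thymic stroma, which limits them as a model of the organ. Each library is given alone, because cells of a library are not replicates and no test was made from them. Intervals are exact 95% intervals for counted molecules and cover counting error only. FL001 held 16320118 unique molecular identifiers (UMIs) and FL002 held 22651783. Barcodes were kept where they had 1500 UMIs or more from no fewer than 500 genes and not over 10% of them mitochondrial, which left 1788 and 4100 cells, with medians of 7722 and 4752.5 UMIs per cell, and 10 barcodes were kept in both libraries.

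Cells were placed in 5 gates by the raw UMIs of stage genes, none of which is a member. The progenitor gate required 2 or more UMIs of Lmo2 and Mef2c together and at most 1 of Cd3g, and held 428 cells of FL001 and 724 of FL002. The early gate required at most 2 UMIs of Cd3g and at most 1 of Lmo2 and Mef2c together (381 and 1134 cells). The Cd3g gate required 3 or more UMIs of Cd3g and 0 of Il2ra (327 and 873 cells), and the Il2ra gate required 1 or more UMIs of Il2ra (738 and 1668 cells). The commitment gate required 2 or more UMIs of Ptcra, Lef1 and Bcl11b together (451 and 501 cells). Gates overlapped, and 275 of the 451 commitment cells of FL001 and 291 of the 501 of FL002 were also in the Il2ra gate. Of the Cd3g gate, 168 of 327 cells in FL001 and 198 of 873 in FL002 were also commitment cells. Of the early gate, 75 of 381 cells in FL001 and 276 of 1134 in FL002 were also in the Il2ra gate. The comparison of the Cd3g with the early gate kept all of these cells, so the gates are not strictly successive stages. A cell in both gates of a comparison was counted in the later gate only, whereas levels are given for whole gates. Gates rest on raw UMIs, so a deeper cell passes a minimum more easily.

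Marker genes followed the names of the progenitor and commitment gates. The 6 progenitor markers summed to 525 and 495 CPM (UMIs divided by all UMIs of the gate and scaled to 1000000) in the progenitor gate and 78.1 and 67.6 CPM in the commitment gate, in FL001 and FL002. The 7 T-lineage markers summed to 64.0 and 78.6 CPM in the progenitor gate and 1358 and 1349 CPM in the commitment gate. The progenitor and early gates also held RNA of other lineages. With Fcer1g and Cpa3 not counted, 349 of 428 progenitor and 226 of 381 early cells of FL001 had 3 or more UMIs of other-lineage markers. In FL002 these were 461 of 724 and 366 of 1134 cells. With both genes counted, only 66 of the 428 progenitor and 87 of the 381 early cells of FL001 had under 3 such UMIs. In FL002 only 228 of 724 and 518 of 1134 did. The 9 myeloid markers summed to 2617, 3989, 447, 652 and 343 CPM in FL001 and 1758, 1323, 439, 439.7 and 351 CPM in FL002 from the progenitor to the commitment gate. The megakaryocyte gene Pf4 alone stood at 589 and 275 CPM in the progenitor gate and at 0.845 or less in the commitment gate of either library. B-cell, mast-cell and innate lymphoid markers summed to at most 125 CPM in any gate.

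The promoter windows of Psmb8, Psmb9 and Psmb5 are shown because the first and second rose and lie in the MHC, while the third is the constitutive partner of Psmb8 and did not pass the fold in both libraries. Each runs from 250 bases before to 50 bases after a RefSeq start, 5′ to 3′ on the gene's strand, with GRCm38.p6 coordinates. Capitals mark matches, on either strand, to 4 patterns: GAAANNGAA for interferon regulatory factors (IRF), TTCNNNGAA for STAT factors, TGANNNNGC for antioxidant response elements, and CCAAT.
Psmb8 (chr17:34197945-34198244, plus strand): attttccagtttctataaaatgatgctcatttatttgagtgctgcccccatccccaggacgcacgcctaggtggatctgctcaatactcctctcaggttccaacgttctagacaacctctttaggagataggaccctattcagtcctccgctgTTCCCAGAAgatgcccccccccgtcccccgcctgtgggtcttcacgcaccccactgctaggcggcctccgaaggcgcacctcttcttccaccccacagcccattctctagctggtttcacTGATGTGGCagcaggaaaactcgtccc
Psmb9 (chr17:34187281-34187580, minus strand): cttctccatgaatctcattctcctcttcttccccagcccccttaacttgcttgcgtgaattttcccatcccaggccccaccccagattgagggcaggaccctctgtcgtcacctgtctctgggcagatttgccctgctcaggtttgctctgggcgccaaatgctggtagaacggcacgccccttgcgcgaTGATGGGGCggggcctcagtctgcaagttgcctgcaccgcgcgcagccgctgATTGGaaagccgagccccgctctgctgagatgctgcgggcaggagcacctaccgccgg
Psmb5 (chr14:54617946-54618245, minus strand): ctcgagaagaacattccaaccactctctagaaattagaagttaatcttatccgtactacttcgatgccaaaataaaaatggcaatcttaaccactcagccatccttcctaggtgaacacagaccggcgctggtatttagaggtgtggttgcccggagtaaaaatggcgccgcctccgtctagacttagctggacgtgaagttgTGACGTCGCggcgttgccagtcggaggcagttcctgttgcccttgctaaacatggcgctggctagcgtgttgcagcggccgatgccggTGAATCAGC
The STAT pattern matched bases 154 to 162 of the Psmb8 window, on both strands because the pattern is its own reverse complement, and none of the patterns overlapped another in these windows. Windows were found for 40 of the 48 members, and none for Psma8, Psmb1, Psmb2, Psmb7, Psmc3, Psmd3, Psmd7 and Psmg2. The STAT pattern was in 3 of the 40 members (Psmb8, Psmd2 and Psmg1; 7.50%) and in 9.55% of all 27025 genes with a window. The IRF pattern was in 7 of 40 members (17.5%), none of them an immune catalytic gene, and in 9.76% of all genes. TGANNNNGC was in 57.5% of members and 45.0% of all genes, and CCAAT in 35.0% and 41.1%. A match is a run of letters and not a shown binding site.

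The summed level from the progenitor through the early, Cd3g, Il2ra and commitment gates was 10956, 12690.5, 13892, 13245 and 13150.3 CPM in FL001 and 11077, 11939.6, 12281, 11715 and 11748 CPM in FL002. It was lowest in the progenitor gate and highest in the Cd3g gate of both libraries. In the median progenitor cell 1.02% of UMIs in FL001 and 1.07% in FL002 came from members, against 1.27% and 1.15% in the median commitment cell. The 5th and 95th percentiles of single cells in the progenitor gate were 0.694% and 1.49% in FL001 and 0.634% and 1.47% in FL002. This spread includes counting error, since the median progenitor cell held 82 member UMIs in FL001 and 60 in FL002. It is therefore not set against the difference between gates. The ratio of summed levels between the commitment and progenitor gates was 1.20 (95% interval 1.19 to 1.22) in FL001 and 1.06 (95% interval 1.05 to 1.08) in FL002, and without the 3 immune catalytic genes it was 1.17 (95% interval 1.16 to 1.19) in FL001 and 1.03 (95% interval 1.02 to 1.05) in FL002.

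**Figure D1:**
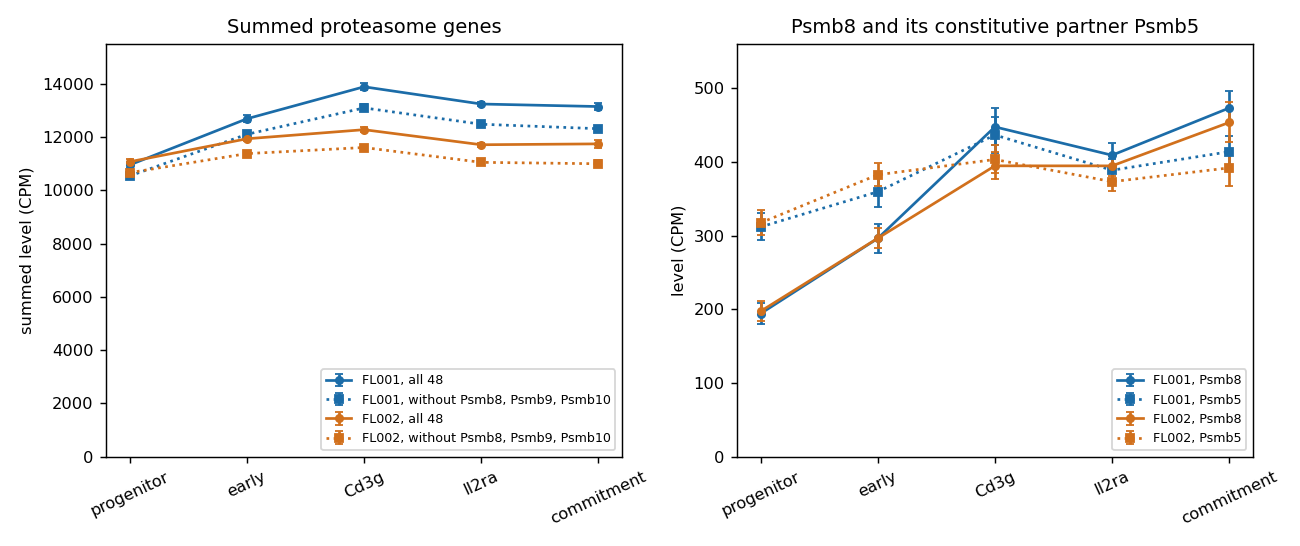
Left, summed level of the 48 members (circles, solid lines) and of the members without Psmb8, Psmb9 and Psmb10 (squares, dotted lines) in CPM for the 5 gates of FL001 (blue) and FL002 (orange). Right, level of Psmb8 (circles, solid) and Psmb5 (squares, dotted) in CPM on the same gates; bars are exact 95% Poisson intervals. The sum is lowest in the progenitor gate and highest in the Cd3g gate of both libraries, while Psmb8 climbs at each step to the Cd3g gate in both libraries; the heights of different genes are not comparable.

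A gene was called, or past the fold, when its level in one gate was at least 25% above that in the other, in the same direction in both libraries, among genes with at least 20 CPM over all kept cells of each library. This left 46 members and 5265 genes in all. Between the progenitor and commitment gates 4 of 46 members (8.70%) were higher, namely Psmb8, Psmb9, Psme2 and Psme4, where 14.0% of all genes tested were higher. No member was lower, where 14.5% of all genes were. The share of members called was thus below the background in both directions, and the median member ratio was 1.14 in FL001 and 1.02 in FL002, against 0.978 and 0.991 over all genes tested. The libraries weighed differently on this count. In FL001 alone 15 members (32.6%) were higher by at least that much, above the 20.2% of all genes tested, and 0 lower (21.9%). In FL002 alone 4 (8.70%) were higher, below the 20.6% of all genes, and 5 (10.9%) lower, below 21.0%, the latter Psma4, Psme3, Psmg1, Psmg2 and Psmg3.

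**Figure D2:**
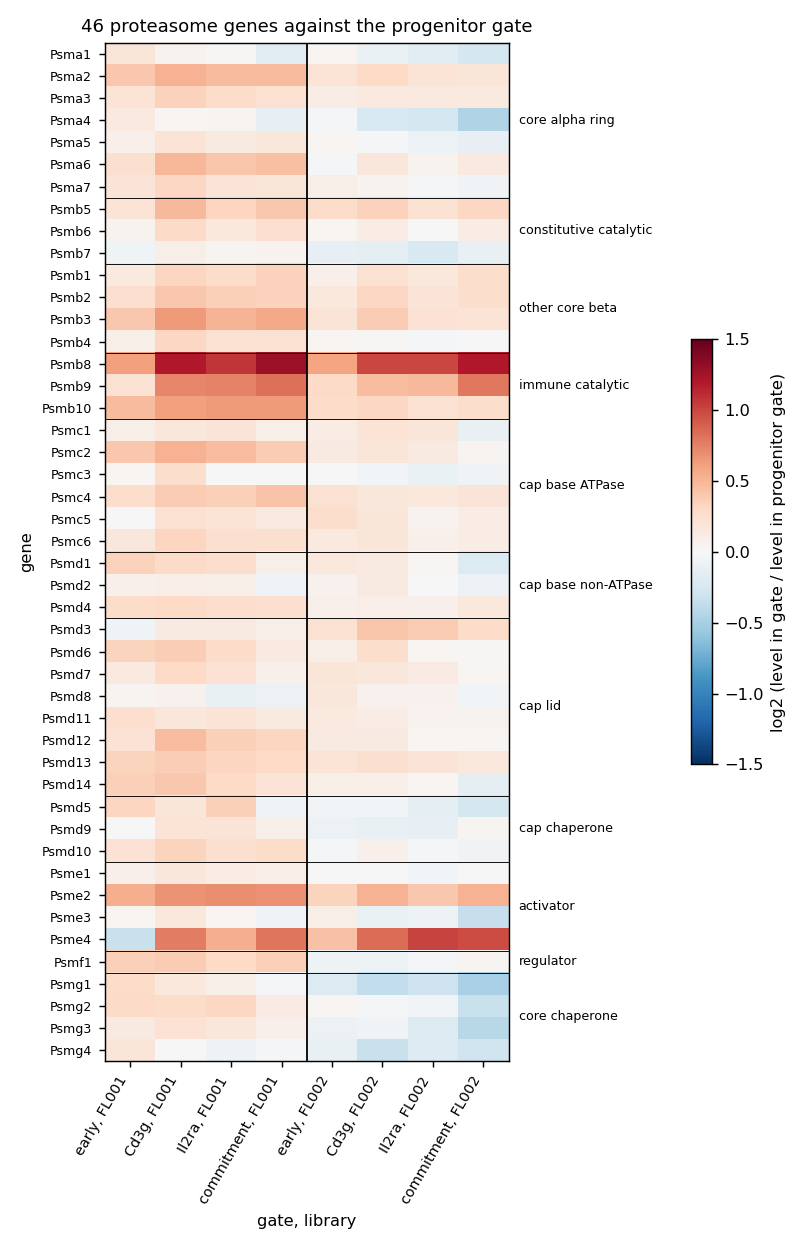
Each row is one of the 46 members past the level filter, ordered by role, and each column a gate of FL001 (left 4) or FL002 (right 4). Colour gives the log2 ratio of the gene's level in the gate to its level in the progenitor gate of the same library, over whole gates. Psmb8, Psmb9, Psme2 and, from the Cd3g gate on, Psme4 are red in both libraries, and the core chaperone rows are blue in the commitment gate of FL002 and near white in that of FL001.

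The 3 immune catalytic genes were the role group with the largest summed ratio. The ratio of their summed level in the commitment gate to that in the progenitor gate was 2.02 (95% interval 1.90 to 2.15) in FL001 and 1.81 (95% interval 1.70 to 1.94) in FL002. Psmb8, which takes the place of Psmb5, was at 194, 296, 447, 409 and 473 CPM in FL001 and 197, 296, 395, 395 and 454 CPM in FL002, in the order of the gates above. Without commitment cells its level in the Cd3g gate was 409 CPM in FL001 and 374 CPM in FL002. The progenitor gate was lowest and the commitment gate highest in both libraries, and their 95% intervals were 180.1 to 209 against 451 to 496 CPM in FL001 and 184 to 211 against 427 to 481 CPM in FL002. The ratio of commitment to progenitor was 2.44 (95% interval 2.23 to 2.67) in FL001 and 2.30 (95% interval 2.10 to 2.52) in FL002. Of all genes tested, 3.84% in FL001 and 4.01% in FL002 had a ratio at least as large, and 168 genes, Psmb8 included, did in both.

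Psmb9, the immune counterpart of Psmb6, overlaps Tap1 on the other strand in the annotation of GRCm38, and whether the counting used strand is not given in the sources used here. Its level was 81.5, 95.7, 135, 136 and 144 CPM in FL001 and 70.1, 85.9, 96.6, 97.9 and 121 CPM in FL002. It rose between the progenitor and commitment gates, with a ratio of 1.78 (95% interval 1.54 to 2.07) in FL001 and 1.73 (95% interval 1.46 to 2.04) in FL002, with the highest level in the commitment gate of both libraries. Psmb10, the counterpart of Psmb7, was at 138, 191, 211, 214 and 215 CPM in FL001 and 144, 175, 178, 169 and 172 CPM in FL002. Its ratio of 1.57 (95% interval 1.40 to 1.76) in FL001 and 1.20 (95% interval 1.05 to 1.36) in FL002 missed the fold in FL002. Psmb10 was past the fold in both libraries with equal weight per cell and, with or without Fcer1g and Cpa3 counted, when cells of other lineages were left out. Under the other alternatives that used both libraries it was not. Most of the Psmb10 difference lay between the progenitor and early gates, where its ratio was 1.38 in FL001 and 1.21 in FL002, and the 4 later gates of FL002 stood within 169 to 178 CPM.

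The constitutive partners differed less. Psmb5, which carries the chymotrypsin-like site, was at 312, 359, 437, 389 and 414 CPM in FL001 and 317, 383, 403, 373 and 392 CPM in FL002, a ratio of 1.33 (95% interval 1.23 to 1.43) in FL001 and 1.24 (95% interval 1.14 to 1.35) in FL002 that passed the fold in FL001 alone. Psmb6, with the caspase-like site, was at 454, 469, 553, 505 and 541 CPM in FL001 and 450.2, 459, 485, 448 and 486 CPM in FL002, and its ratio was 1.20 (95% interval 1.12 to 1.28) in FL001 and 1.08 (95% interval 1.01 to 1.17) in FL002. Psmb7, with the trypsin-like site, was at 295, 282, 312, 303 and 306 CPM in FL001 and 299, 274, 271, 256 and 277 CPM in FL002, and its ratio of 1.04 (95% interval 0.957 to 1.13) in FL001 and 0.925 (95% interval 0.840 to 1.02) in FL002 lay above 1 in one library and below 1 in the other. No constitutive catalytic gene was called.

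Because molecules of different genes are captured with unknown efficiency, only the change of an immune gene's share of its pair across gates is read, and not the size of the share. Psmb8 made up 38.4, 45.2, 50.6, 51.3 and 53.3% of the UMIs of Psmb8 and Psmb5 in FL001, and 38.3, 43.7, 49.5, 51.4 and 53.6% in FL002, from the progenitor to the commitment gate. Over whole gates the share was higher at every step in both libraries, going from 38.4% (36.2 to 40.6) to 53.3% (51.6 to 55.1) in FL001 and from 38.3% (36.3 to 40.4) to 53.6% (51.4 to 55.8) in FL002. Neighbouring gates from the Cd3g gate on had overlapping intervals, while the progenitor, early and Cd3g gates did not overlap. In FL001 cells of 4000 to 8000 UMIs, Psmb8 fell from 488 to 472 CPM between the Cd3g and Il2ra gates. Psmb5 went from 365 to 367 CPM in these cells, so the Psmb8 share did not rise at that step there. Nor did it rise from the Il2ra to the commitment gate of FL001 cells with 1500 to 4000 UMIs. There Psmb8 went from 724 to 758 and Psmb5 from 207 to 238 CPM. In FL002 cells of 8000 or more UMIs it did not either, with Psmb8 from 322 to 354 and Psmb5 from 421 to 488 CPM. From the progenitor to the commitment gate of these cells the ratio was 1.70 for Psmb8 and 1.41 for Psmb5. The Psmb8 share there rose less than over whole gates. Psmb9 made up 15.2, 16.9, 19.7, 21.2 and 21.0% of its pair with Psmb6 in FL001 and 13.48, 15.8, 16.6, 17.9 and 19.9% in FL002. Its share was lowest in the progenitor gate of both libraries, and its interval there did not overlap that of the commitment gate, whereas each gate overlapped the next in both libraries. Psmb10 made up 31.9, 40.5, 40.4, 41.5 and 41.3% of its pair with Psmb7 in FL001 and 32.5, 39.0, 39.7, 39.7 and 38.3% in FL002, and stood about level after the progenitor gate. For the 6 genes together the immune share was 28.1% (26.9 to 29.3) in the progenitor and 39.8% (38.7 to 40.9) in the commitment gate of FL001, and 27.8% (26.7 to 29.0) and 39.3% (37.8 to 40.7) in FL002. This share also moved with the depth of the cells. In cells of 8000 or more UMIs it was 28.2, 35.1, 35.8, 36.0 and 35.2% in FL001 from the progenitor to the commitment gate. In such cells of FL002 it was 28.4, 31.1, 32.5, 33.4 and 34.8%. With 1500 to 4000 UMIs it was 30.6, 39.7, 52.3, 53.6 and 55.9% in FL001 and 30.6, 33.2, 42.5, 44.1 and 46.4% in FL002.

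**Figure D3:**
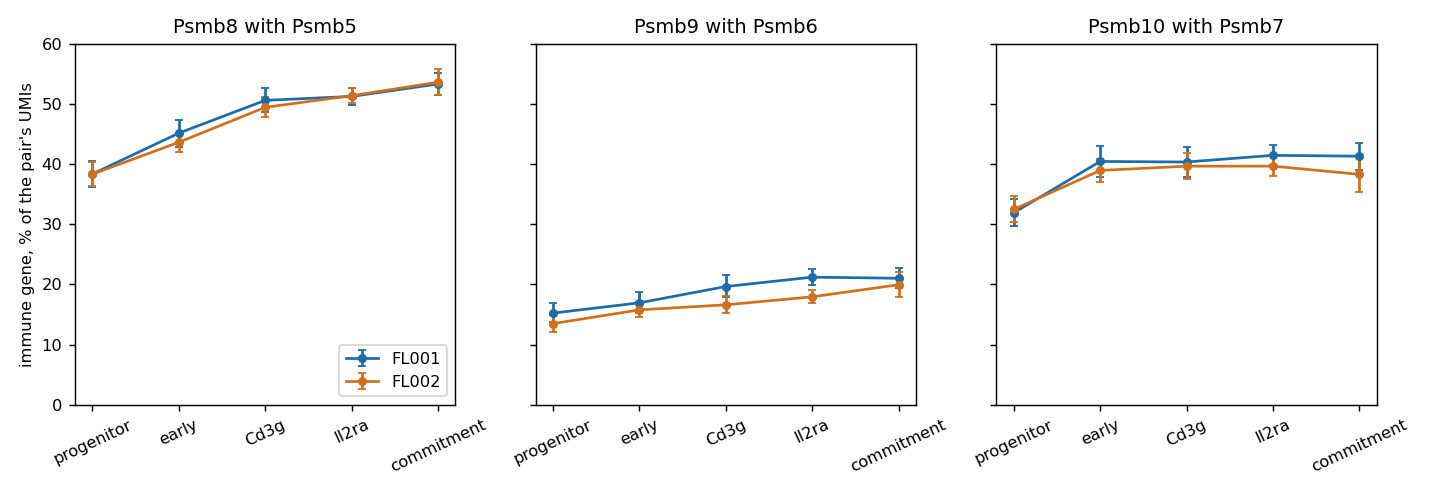
Share of the immune gene in the UMIs of each catalytic pair, in percent, for the 5 gates of FL001 (blue) and FL002 (orange). Points are shares over all cells of a gate and bars exact 95% binomial intervals. The progenitor gate is lowest in every pair of both libraries, Psmb8 goes on rising to the commitment gate, and Psmb10 is flat from the early gate on.

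RNA of other lineages moved with the gates, so the share was also taken within the progenitor gate. Progenitor cells with under 3 UMIs of myeloid, megakaryocyte, erythroid, mast, B-cell and innate lymphoid markers (79 and 263 cells, with Fcer1g and Cpa3 not counted) had a Psmb8 share of 37.6% (32.5 to 42.9) in FL001 and 38.9% (35.2 to 42.7) in FL002. Those with 3 or more (349 and 461 cells) had 38.5% (36.1 to 41.0) and 38.1% (35.6 to 40.6). Both values of each library lay below those of its commitment gate, and their intervals did not overlap with it. In droplets of 1 to 100 UMIs, which hold free RNA, the Psmb8 share was 45.5% (41.4 to 49.6) in FL001 and 49.7% (46.1 to 53.4) in FL002, with intervals above that of the progenitor gate in both libraries and, in FL002, overlapping that of the commitment gate.

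The depth of a cell moved with the immune result. In the commitment gate the Psmb8 level of cells with 1500 to 4000, 4000 to 8000 and 8000 or more UMIs was 758, 552 and 402 CPM in FL001 and 569, 428 and 354 CPM in FL002, lowest in the deepest cells. The Cd3g and Il2ra gates had the same order, with 724, 472 and 365 CPM in the Il2ra gate of FL001 and 483, 386 and 322 CPM in that of FL002. The early gate did not, with 261, 256 and 319 CPM in FL001 and 271, 304 and 300 CPM in FL002. In the progenitor gate the level was 158, 169.6 and 206 CPM in FL001 and 193, 193 and 209 CPM in FL002, and the intervals of these depths overlapped. The summed level of all members went the other way and was highest in the deepest cells of every gate, at 8620.4, 10007 and 11476 CPM in the progenitor and 12047, 12352 and 13652 CPM in the commitment gate of FL001.

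At matched depth Psmb8 was higher in the commitment than in the progenitor gate at all 3 depths of both libraries. The ratio from the shallowest to the deepest cells was 4.80, 3.24 and 1.95 in FL001 and 2.94, 2.21 and 1.70 in FL002. The lowest of these, 1.70 in the 42 commitment and 116 progenitor cells of FL002 with 8000 or more UMIs, had an interval of 1.37 to 2.09, and the highest rested on 16 UMIs in 32 progenitor cells (interval 2.89 to 8.56). Psmb5 had ratios of 1.01, 1.48 and 1.32 in FL001 and 1.31, 1.20 and 1.41 in FL002 over the same depths. Psmb9 had 1.67, 2.42 and 1.54 in FL001 and 2.005, 1.53 and 1.85 in FL002. Psmb10 had 3.11, 2.09 and 1.33 in FL001 and 1.82, 1.10 and 1.21 in FL002. Its FL002 intervals included 1 in cells of 4000 to 8000 UMIs (0.920 to 1.32) and of 8000 or more (0.940 to 1.55). Summed over all members the ratio was 1.40, 1.24 and 1.19 in FL001 and 1.22, 1.08 and 1.04 in FL002. Without Psmb8, Psmb9 and Psmb10 the sum had 1.31, 1.18 and 1.17 in FL001 and 1.17, 1.06 and 1.02 in FL002. The last of these had an interval of 0.987 to 1.05. The size of the Psmb8 difference varied with the range of depth compared, and its direction did not. A fixed minimum of raw UMIs is a stricter cut in a shallow cell. Depth and the strictness of the gates therefore cannot be told apart here.

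**Figure D4:**
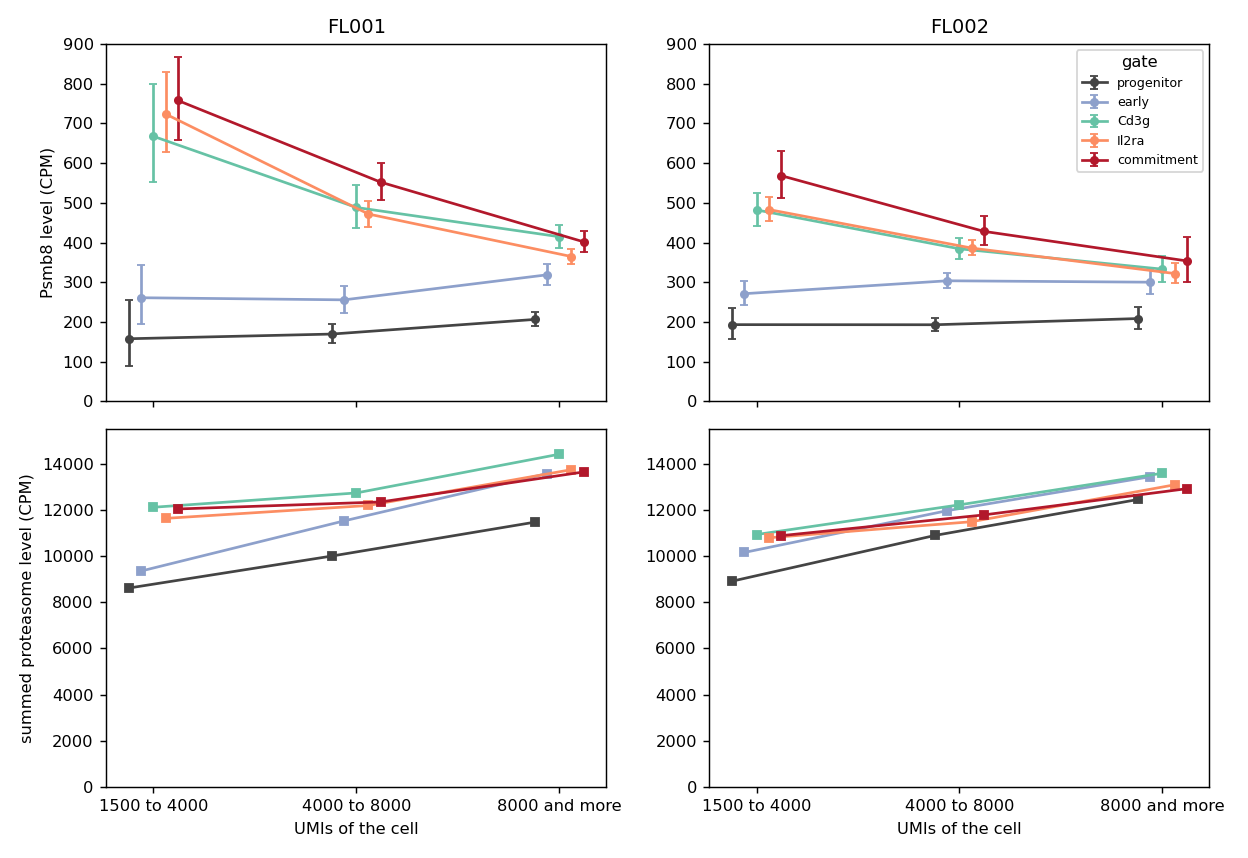
Top, Psmb8 level in CPM (bars, exact 95% Poisson intervals) and bottom, summed level of the 48 members in CPM, for cells of 3 ranges of UMIs in each gate (colours) of FL001 (left) and FL002 (right). Psmb8 falls with depth in the Cd3g, Il2ra and commitment gates and has overlapping intervals in the progenitor gate, while the sum climbs with depth in every gate.

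Within each gate, transcripts of mitosis moved with depth and with the sum of members. From the progenitor to the commitment gate their summed ratio was 0.797 in FL001 and 0.788 in FL002, against the direction of the member sum. The 13 mitosis genes had 2 or more UMIs in 82.9% of progenitor and 66.3% of commitment cells in FL001, and in 80.2% and 61.5% in FL002. In the commitment gate, cells with 0 such UMIs had a median depth of 3925 against 8969 UMIs in cells with 2 or more in FL001, and 2754 against 5406 in FL002. Their summed member level was 11944 against 13438 CPM in FL001 and 11263 against 11993 CPM in FL002, and cells with 2 or more were the higher in all 5 gates of both libraries. Their Psmb8 level was 655 against 434 CPM in FL001 and 507 against 424 CPM in FL002, while in the progenitor gate it was 206 against 195 CPM and 201 against 196 CPM. Within the commitment gate Psmb8 and the sum of members thus ran in opposite directions. The part of division apart from depth was not tested.

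The activators attach to the core in place of the cap, and they did not move as a group. Psme1 and Psme2 encode the alpha and beta chains of the interferon-inducible activator. Psme2 was at 222, 322, 354, 358 and 356 CPM in FL001 and 196, 247, 282, 260.3 and 280.4 CPM in FL002 and rose from the progenitor to the commitment gate, with a ratio of 1.61 (95% interval 1.48 to 1.76) in FL001 and 1.43 (95% interval 1.29 to 1.58) in FL002. Psme1 was at 276, 292, 310.2, 297 and 295 CPM in FL001 and 282, 281, 284, 274 and 282 CPM in FL002, with a ratio of 1.07 (95% interval 0.980 to 1.17) in FL001 and 0.999 (95% interval 0.908 to 1.10) in FL002. Psme4, which encodes a nuclear activator, was at 25.9, 20.5, 44.2, 37.9 and 45.3 CPM in FL001 and 26.1, 35.4, 46.6, 52.7 and 51.5 CPM in FL002. It rose as well, with a ratio of 1.75 (95% interval 1.35 to 2.29) in FL001 and 1.97 (95% interval 1.51 to 2.57) in FL002, on 95 and 111 UMIs in the progenitor gates, and was no longer tested with a filter of 50 CPM and no longer called in cells thinned to 1500 UMIs. Psme3, which forms another nuclear activator, was at 96.1 and 92.1 CPM in the progenitor and commitment gates of FL001 and at 90.6 and 71.4 CPM in those of FL002, with a ratio of 0.959 in FL001 and 0.785 in FL002. Psme2b, a close copy of Psme2 named here after its values were seen, was listed separately at 33.7 and 53.2 CPM in these gates of FL001 and at 28.7 and 32.5 CPM in FL002, so that molecules of the pair may be split between them.

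The alpha ring, whose 7 genes encode the gate of the core, had a summed ratio of commitment to progenitor of 1.15 (95% interval 1.12 to 1.17) in FL001 and 0.977 (95% interval 0.951 to 1.003) in FL002, on opposite sides of 1. Single genes ranged from 0.892 to 1.40 in FL001 and from 0.732 to 1.13 in FL002, and none was called. Psma2, Psma3 and Psma6 were above 1 in both libraries, at 1.40, 1.17 and 1.38 in FL001 and 1.13, 1.11 and 1.10 in FL002. Psma4 was at 444, 490.1, 452, 455 and 407 CPM in FL001 and 474, 468, 405, 395 and 346 CPM in FL002 and had the smallest ratio by geometric mean among the 46 members past the filter, 0.922 (95% interval 0.858 to 0.990) in FL001 and 0.732 (95% interval 0.674 to 0.794) in FL002, past the fold in FL002 alone. Psma1 was at 479.8, 545, 497, 486 and 426 CPM in FL001 and 506, 516, 471, 454 and 422 CPM in FL002, with a ratio of 0.892 in FL001 and 0.836 in FL002. The 4 beta genes without a catalytic site, Psmb1, Psmb2, Psmb3 and Psmb4, had a summed ratio of 1.29 (95% interval 1.253 to 1.34) in FL001 and 1.16 (95% interval 1.12 to 1.20) in FL002. Psmb3 was at 292, 386, 453, 414 and 432 CPM in FL001 and 318, 364, 412, 369 and 367 CPM in FL002, and its ratio of 1.49 in FL001 and 1.16 in FL002 passed the fold in FL001 only.

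The cap genes differed little between the gates. Its base and lid, 17 genes, had a summed ratio of 1.12 (95% interval 1.09 to 1.15) in FL001 and 1.03 (95% interval 0.998 to 1.06) in FL002, and no gene of the 17 was called. The 6 ATPase genes Psmc1 to Psmc6, whose products unfold substrates, had a summed ratio of 1.19 in FL001 and 1.05 in FL002, with single genes from 0.995 to 1.35 in FL001 and from 0.924 to 1.14 in FL002. The base scaffold genes Psmd1 and Psmd2 and the ubiquitin receptor gene Psmd4 summed to 1.09 in FL001 and 1.01 in FL002. The 8 lid genes summed to 1.09 in FL001 and 1.02 in FL002, with single genes from 0.937 to 1.252 in FL001 and from 0.900 to 1.21 in FL002, among them Psmd14, the deubiquitinase of the lid, at 1.14 in FL001 and 0.900 in FL002. For comparison, the 14 core genes without the immune ones had a summed ratio of 1.20 (95% interval 1.17 to 1.22) in FL001 and 1.04 (95% interval 1.02 to 1.06) in FL002.

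The genes for assembly of the core differed between the libraries, as did the sum of all members and other role groups. The core chaperones Psmg1, Psmg2, Psmg3 and Psmg4, which build the rings and are not part of the finished particle, had ratios of commitment to progenitor from 0.987 to 1.08 in FL001 and from 0.716 to 0.809 in FL002. Summed, they stood at 414, 483, 458, 446 and 423 CPM in FL001 and 451, 421, 390.3, 394 and 346 CPM in FL002 and had a ratio of 1.02 (95% interval 0.952 to 1.10) in FL001 and 0.767 (95% interval 0.705 to 0.832) in FL002, so the intervals of the libraries did not overlap. Nor did those of all members, of the alpha ring, or of the base and lid together, given above. Psmg1 was at 114, 138, 127, 121 and 112 CPM in FL001 and 119, 104, 92.7, 95.9 and 85.3 CPM in FL002. The base chaperones Psmd5, Psmd9 and Psmd10 summed to 1.07 (95% interval 0.964 to 1.19) in FL001 and 0.942 (95% interval 0.836 to 1.06) in FL002, with overlapping intervals. Psmf1, a regulator known as an inhibitor of the core in vitro, had a ratio of 1.28 in FL001 and 1.04 in FL002 on 131 and 165 progenitor UMIs. Which feature of the libraries goes with this difference was not tested, and no stated condition separates them.

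The tissue-restricted core genes did not pass the level filter. Psma8, an alpha subunit known from testis, was at 14.8, 9.77, 12.4, 10.2 and 10.1 CPM in FL001 and 8.24, 6.80, 8.18, 8.47 and 7.18 CPM in FL002. Psmb11, the catalytic subunit of cortical thymic epithelium, had 2 UMIs among all kept cells of FL001 and 2 among those of FL002, of 15121951 and 21290758 UMIs, under the floor of 3 counts. It was not detectable above that floor in these libraries, which hold no thymic epithelium by their labels.

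Between the progenitor and early gates, 2 of 46 members (4.35%) were higher in both libraries, Psmb8 and the activator gene Psme2, against 7.43% of all genes tested, and 0 were lower against 5.22%. The largest ratios, in FL001 and FL002, were those of Psmb8 (1.53 and 1.502), Psme2 (1.454 and 1.26) and Psmb10 (1.38 and 1.21), and the smallest those of Psmb7 (0.956 and 0.915), Psmd9 (1.004 and 0.939) and Psmc3 (1.02 and 1.01). The summed ratio was 1.16 (95% interval 1.14 to 1.17) in FL001 and 1.08 (95% interval 1.07 to 1.09) in FL002. Of the 46 members, 33 were above 1 in both libraries, against 2013 of the 5265 genes tested. Without cells that carried 3 or more UMIs of other lineages, Psmb8 and Psme2 were no longer called, and the log2 ratio of Psmb8 was 0.21 in FL001 (87 early and 66 progenitor cells) and 0.47 in FL002 (518 and 228 cells), against 0.61 and 0.59 with them. Both were called where Fcer1g and Cpa3 were not counted among the markers of other lineages. With disjoint gates Psme2 was no longer called and Psmb8 was. Psmb5, the partner of Psmb8, had a ratio of 1.15 (95% interval 1.06 to 1.254) in FL001 and 1.21 (95% interval 1.13 to 1.29) in FL002.

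From the early to the Cd3g gate, 2 of 46 members (4.35%) were higher, Psmb8 and the activator gene Psme4, against 5.43% of all genes, and 0 lower against 5.22%. The largest ratios were those of Psme4 (2.15 and 1.32), Psmb8 (1.51 and 1.33) and Psmb9 (1.41 and 1.12), and the smallest those of Psmg4 (0.879 and 0.859), Psma4 (0.923 and 0.865) and Psmg1 (0.919 and 0.894). The interval of Psmb8 was 1.39 to 1.65 in FL001 and 1.245 to 1.42 in FL002. The summed ratio was 1.09 in FL001 and 1.03 in FL002. Psme4 was no longer called without mitotic cells or with a filter of 50 CPM. Psmb8 was called in both, and neither gene was higher by 50% in both libraries.

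Between the Cd3g and Il2ra gates no member was called, against 0.532% of all genes higher and 0.361% lower. The summed ratio was 0.953 (95% interval 0.942 to 0.965) in FL001 and 0.954 (95% interval 0.944 to 0.964) in FL002. Of the 46 members, 30 were below 1 in both libraries and 1 above, against 1545 and 1383 of the 5265 genes tested. Psmd5 (1.13 and 0.936), Psmg4 (0.951 and 1.10) and Psmb9 (1.01 and 1.01) had the largest ratios by geometric mean, and Psmd6 (0.941 and 0.846), Psmc3 (0.833 and 0.961) and Psmb3 (0.914 and 0.894) the smallest. From the Il2ra to the commitment gate again no member was called, against 4.35% of all genes higher and 4.65% lower. The largest ratios were those of Psmb8 (1.24 and 1.18), Psmb9 (1.12 and 1.28) and Psme4 (1.30 and 0.974), and the smallest those of Psmd5 (0.679 and 0.900), Psmg2 (0.841 and 0.780) and Psmd1 (0.817 and 0.829). Psmb8 missed the fold in both libraries, by little in FL001, where its interval was 1.16 to 1.33. The smallest ratio of a called member between the progenitor and commitment gates was that of Psme2, 1.43 in FL002, with an interval of 1.29 to 1.58. Just outside the fold in FL002, though past it in FL001, were among others Psmb5 at 1.24 and Psmb10 at 1.20.

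Across the 46 members the log2 ratios of commitment to progenitor in the libraries had a Pearson correlation of 0.886 and, over the 43 members without the immune genes, of 0.816. For the early against the progenitor gate the correlation was 0.221, and for the Il2ra against the Cd3g gate -0.157. These describe genes and not samples, and the points of a library share its cells and depth. For the Cd3g against the early gate it was 0.728, and for the commitment against the Il2ra gate 0.623. Without the immune genes the correlation of the early against the progenitor gate was -0.0077.

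**Figure D5:**
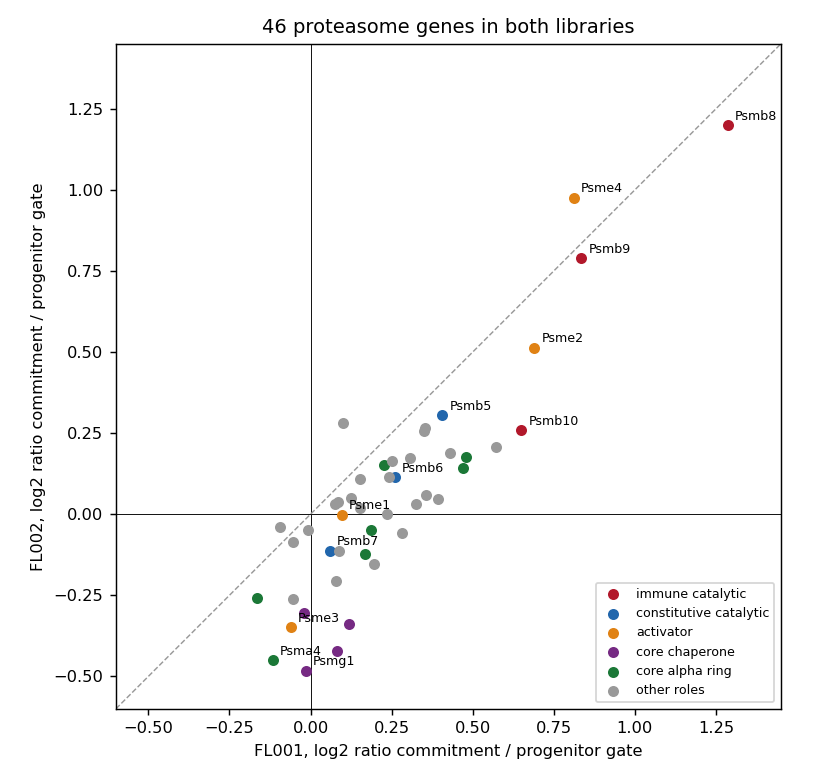
Each point is one of the 46 members past the level filter, at its log2 ratio of commitment to progenitor gate in FL001 (horizontal) and FL002 (vertical), coloured by role. The dashed line marks equal ratios. Psmb8, Psme4, Psmb9 and Psme2 lie apart at the upper right, and 43 of the 46 members had a smaller ratio in FL002 than in FL001.

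Genes that work beside the proteasome were described from lists, and ratios are again of the commitment to the progenitor gate. Of the 11 genes of peptide presentation 8 passed the level filter, 3 were higher in the commitment than in the progenitor gate and 1 lower, beside 14.0% and 14.5% of all genes. The 11 genes summed to 0.982 in FL001 and 0.957 in FL002. Of the 8 tested, 3 were above 1 and 5 below 1 in both libraries, so the list did not rise as a whole. Tap2, a chain of the peptide transporter, was at 31.0, 66.7, 94.5, 103 and 112 CPM in FL001 and 33.2, 61.0, 89.3, 99.1 and 119.9 CPM in FL002, a ratio of 3.63 (95% interval 2.94 to 4.51) in FL001 and 3.60 (95% interval 2.93 to 4.44) in FL002. Tapbp, which links the transporter to MHC class I, had 1.74 in FL001 and 2.10 in FL002, and the MHC heavy chain gene H2-K1 had 1.39 in FL001 and 1.31 in FL002. The heavy chain gene H2-D1 fell, with 0.798 in FL001 and 0.760 in FL002. Tap1, the other transporter chain and neighbour of Psmb9, was under the filter at 8.10, 15.8, 21.2, 16.6 and 18.5 CPM in FL001 and 8.24, 10.7, 10.9, 12.3 and 16.9 CPM in FL002. B2m, the light chain, had 0.948 in FL001 and 0.900 in FL002 over the whole path and was called lower from the Il2ra to the commitment gate, at 0.734 in FL001 and 0.787 in FL002.

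Among regulators of the pathway, Irf1, an interferon-induced transcription factor, was at 15.9, 19.2, 25.5, 26.6 and 31.9 CPM in FL001 and 12.9, 20.1, 19.8, 24.7 and 23.6 CPM in FL002 and rose with a ratio of 2.02 (95% interval 1.46 to 2.82) in FL001 and 1.82 (95% interval 1.23 to 2.69) in FL002. Irf8, a myeloid regulator, fell from 119 to 4.76 CPM in FL001 and from 81.9 to 5.49 CPM in FL002. Nfe2l2, a regulator of the oxidative stress response, had 1.04 in FL001 and 0.831 in FL002, while Nfe2l1, the factor behind the recovery of proteasome genes after inhibition, and Nlrc5, the transactivator of MHC class I, were under the filter.

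The remaining lists of the pathway held no called gene between the progenitor and commitment gates. The ubiquitin genes summed to 0.961 in FL001 and 0.960 in FL002 (3 of 4 past the filter), the ubiquitin-activating enzymes Uba1 and Uba6 to 0.965 in FL001 and 1.15 in FL002, and the shuttle factors to 0.908 in FL001 and 1.02 in FL002. The other proteasome genes, which lack the Psm name, were found for 6 of 9 symbols and summed to 1.03 in FL001 and 0.959 in FL002. Uchl5, a deubiquitinase of the cap, was lower in the commitment than in the Il2ra gate, at 0.728 in FL001 and 0.792 in FL002. The p97 unfoldase genes summed to 0.993 in FL001 and 1.07 in FL002 and the 7 genes found of the CCT chaperonin, another large protein complex, to 0.987 in FL001 and 0.899 in FL002. Of lists outside the pathway, the mitosis list summed to 0.797 in FL001 and 0.788 in FL002, with 5 of 13 genes lower (Cdk1, Aurka, Aurkb, Ube2c and Cenpf), and the ribosomal protein genes to 0.879 in FL001 and 0.942 in FL002, with 6 of 98 genes lower. Of all genes tested 14.5% were lower, a share below that of the mitosis list and above that of the ribosomal protein genes. Myc was lower in the commitment than in the Il2ra gate, at 0.780 in FL001 and 0.733 in FL002, and had 0.841 in FL001 and 1.05 in FL002 over the whole path.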

How the data were processed

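Droplet 3′ RNA-seq was made from 2 libraries of differentiating fetal liver cells. The authors aligned reads and counted UMIs with CellRanger and deposited raw counts per gene and barcode. The submitters' processing notes name the build mm9. The CellRanger version, annotation and use of strand are not given in the sources used here. The deposited counts were used unchanged, in Python 3.11.15 with numpy 2.4.6, scipy 1.17.1, pandas 2.3.3 and scanpy 1.11.5. Barcodes with 1500 or more UMIs, 500 or more genes and no more than 10% mitochondrial UMIs were kept. Scrublet marked 7 cells of FL001 and 1 of FL002, too few to have worked, so doublets stayed in and the top 5% of scores were left out as an alternative.

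UMIs were summed per gate and library and divided by all UMIs of the gate (CPM). Intervals were exact Poisson for levels, exact binomial for shares and conditional binomial for ratios, at 95%. UMIs remove PCR copies, and the intervals cover counting error only. The gate sums and fold rule were run on simulated Poisson counts drawn from the pooled profile of each library. There the ratios were first divided by their median, unlike the reported ones. That run therefore does not cover the reported rule exactly, nor variation between cells. The members, lists, gates and rules were chosen with earlier results of these data known. Members were named freely. Values are given in full for the 6 catalytic genes, Psme1 and Psme2, and for the 3 largest and 3 smallest ratios of a comparison by the geometric mean of the libraries. Of the genes of lists past the fold in both libraries some are given, mainly between the progenitor and commitment gates, and other values for context. Some listed genes are not reported here. The alternatives concerned cell filters, depth, thinning, lineages, mitotic cells, scaling, the filter, the fold and each library left out. In the GENCODE annotation of GRCm38, 22 of 48 members overlap another gene, 9 of them on the same strand. Psmb8 overlaps Gm20496 and Psmb9 overlaps Tap1, both on the other strand. RefSeq promoter windows used GRCm38.p6, apart from the build of the counts.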

Additional observations from a re-analysis of the deposited data

How the results depend on the processing

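Of 17 alternatives, 2 were chosen after seeing the data: disjoint gates, and Fcer1g and Cpa3 not counted among markers of other lineages. Psmb8 and Psmb9 were past the fold between the progenitor and commitment gates under all of them. The summed log2 ratio for that pair of gates was 0.18 (0.27 in FL001 and 0.085 in FL002) and 0.31 in cells thinned to 1500 UMIs, where the early gate gave 0.26 in place of 0.16. From the Cd3g to the Il2ra gate the summed log2 ratio of -0.068 became -0.057 with equal weight per cell, -0.072 with cells of 3000 to 8000 UMIs, -0.061 with cells thinned to 1500 UMIs, -0.070 with the top 5% of doublet scores left out, -0.026 with cells with other-lineage UMIs left out, -0.027 with mitotic cells left out, -0.060 with scaling without ribosomal and mitochondrial genes, -0.064 with scaling by the median of ratios, -0.081 with disjoint gates and -0.077 with Fcer1g and Cpa3 not counted among other lineages. From the Il2ra to the commitment gate -0.013 became 0.029 in cells of 3000 to 8000 UMIs, 0.022 after thinning, 0.021 without other lineages and 0.019 with Fcer1g and Cpa3 not counted among them.

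After thinning, which also drew the gates anew from the thinned counts (progenitor gate 112 and 204 cells, commitment gate 156 and 204), 12 members were higher and 3 lower in the commitment than in the progenitor gate, 9 and 1 in the early gate against the progenitor gate, 4 and 1 in the Cd3g against the early gate, and 1 and 2 in the commitment against the Il2ra gate. Without mitotic cells the first pair had 9 higher and 4 lower, the second 7 and 2, the third 1 higher (Psme4 was lost) and the last 3 lower. Without other lineages, 1 member (Psme3) was higher in the early than in the progenitor gate, 2 lower from early to Cd3g and 1 higher from Cd3g to Il2ra. A filter of 50 CPM left 1 higher from early to Cd3g, and a threshold of 50% higher left 1 from progenitor to early and 0 from early to Cd3g. In the libraries alone, leaving the other replicate out, the lowest and highest counts were 4 and 15 higher and 0 and 5 lower from progenitor to commitment, 3 and 11 higher and 0 and 1 lower from progenitor to early, and 1 and 1 higher and 1 and 2 lower from Il2ra to commitment. Under these alternatives the share of all genes past the fold was not counted, save for each library alone from progenitor to commitment, given above. The counts therefore have no background and are not read as a result about the members.

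The rise of the Psmb8 share from the progenitor to the commitment gate, 15.1 percentage points as the mean of the libraries, became 19.0 with equal weight per cell, 19.0 with cells of 3000 to 8000 UMIs, 24.0 with cells thinned to 1500 UMIs, 15.5 with the top 5% of doublet scores left out, 18.9 with cells with other-lineage UMIs left out, 23.8 with mitotic cells left out, 15.7 with disjoint gates and 15.6 with Fcer1g and Cpa3 not counted among other lineages. The 6.16 points of Psmb9 became 6.93 with equal weight per cell, 8.11 with cells of 3000 to 8000 UMIs, 7.21 with cells thinned to 1500 UMIs, 6.58 with the top 5% of doublet scores left out, 7.30 with cells with other-lineage UMIs left out and 7.20 with mitotic cells left out, and the 7.68 points of Psmb10 became 10.4 with equal weight per cell, 11.1 with cells of 3000 to 8000 UMIs, 11.8 with cells with other-lineage UMIs left out and 13.0 with mitotic cells left out. No share difference changed sign. The cause of these changes was not tested. No paired analysis was possible because both libraries belong to 1 group, whose replicate numbers pair nothing. The error is that of counted molecules, and with 2 libraries no spread between cultures can be had. Genes under 20 CPM, Psma8 and Psmb11 among the members, were too shallow for a ratio.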

Other observations

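Cells in no gate numbered 6 in FL001 and 13 in FL002 and entered no comparison.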
